A study of Mus musculus with 6 samples.

Results

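The 8 complement genes C3, Cfb, C1s1, C1ra, C4b, Serping1, Cd55 and Cd59a were followed in cultured mouse keratinocytes in which Dnmt1, the gene of the maintenance DNA methyltransferase, was deleted. They were chosen by name, as 8 of the 43629 genes in the count table, and 6 of them had enough reads to be tested. C3 RNA rose about 9-fold in the Dnmt1-deleted cells. C1s1 and C1ra were higher in all 3 Dnmt1Δ/Δep libraries than in any control library, but their increase did not pass the test reported, in which libraries were not paired, and did pass with the replicate number as a block. Cd59a was lower in all 3, also without passing, C4b and Cd55 overlapped between the groups, and Cfb and Serping1 were close to or at the limit of detection.

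Complement is a set of proteins that tag microbes and damaged cells and can punch holes into membranes. C1r and C1s are the proteases of the C1 complex that starts the classical pathway, C4 and C3 are cleaved in turn and bind covalently to nearby surfaces, and factor B joins C3b in the enzyme that amplifies the reaction. C1 inhibitor, CD55 and CD59 restrain these steps on host cells. Most circulating complement comes from the liver, but keratinocytes are known to make several components themselves and to carry the surface regulators.

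Epidermis was taken at postnatal day 3 from 3 control mice and from 3 Dnmt1Δ/Δep mice, and the keratinocytes were grown for 5 days on dishes coated with collagen and fibronectin in keratinocyte growth medium with 8% chelated serum and 0.05 mM CaCl2. One figure legend of the study gives a shorter culture time. In the study, Dnmt1Δ/Δep stands for K5-Cre+ Dnmt1 f/f animals, in which Cre under the Keratin 5 promoter deletes Dnmt1 in epithelial cells expressing that keratin, and control animals are given as Dnmt1 f/f or Dnmt1 f/+, with Cre-carrying heterozygotes counted among controls in 1 survival plot. The sample labels give only control or knock-out and female sex for all 6, on what the methods describe as a mixed C57BL/6J 129SV background. Poly(A)-selected RNA of each culture was sequenced once, so that p-values measure the spread among 3 animals a group.

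The libraries held between 53433121 and 115526598 reads on genes, and 3 counts, the limit that a count of 0 allows, corresponded to between 0.0254 and 0.0558 CPM (counts scaled by library size). These limits cover counting error only. Dnmt1 itself averaged 366 ± 37.2 CPM (SD, n = 3) and fell to 51.6 ± 2.44 CPM, with a log2 fold change of −2.83 (quasi-likelihood test of edgeR, adjusted after Benjamini-Hochberg, adjusted p = 8.1e-05), with no overlap between the groups. All 10 keratinocyte markers were detected, and their summed level was 30600 to 34400 CPM in control against 23400 to 24200 CPM in Dnmt1Δ/Δep libraries, most of it Krt5 and Krt14. Markers of macrophages and dendritic cells summed to at most 4.58 CPM, with the higher sums in Dnmt1Δ/Δep libraries.

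Promoter windows of RefSeq on GRCm38.p6 were found for 5 of the 8 genes, C3, C1s1, C1ra, Cd55 and Cd59a. They are shown because Dnmt1 loss bears on CpG methylation. A further reason was that C3, C1s1 and C1ra were higher in each Dnmt1Δ/Δep library and the membrane regulators were not. C1s1 and C1ra did not pass the test reported. Each line gives, 5′ to 3′, the 250 bases before the annotated start site, except for C1ra, where the 30 bases from position 13 to 42 after the RefSeq start site carry the matches. The RefSeq start of C1ra lies 216 bases from the start in GENCODE M21. Capitals mark matches to TTGCNNAA, a short form of the C/EBP site, to TTCNNNGAA, the site of STAT factors, or to GAAANNGAA, the core of the interferon-response element.
C3, chr17:57228137-57228386, minus strand: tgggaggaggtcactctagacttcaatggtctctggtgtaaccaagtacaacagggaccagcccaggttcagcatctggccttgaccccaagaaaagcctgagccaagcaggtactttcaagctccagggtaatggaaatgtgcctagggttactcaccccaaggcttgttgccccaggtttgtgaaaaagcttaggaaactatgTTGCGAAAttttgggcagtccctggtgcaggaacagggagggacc
C1s1, chr6:124542360-124542609, minus strand: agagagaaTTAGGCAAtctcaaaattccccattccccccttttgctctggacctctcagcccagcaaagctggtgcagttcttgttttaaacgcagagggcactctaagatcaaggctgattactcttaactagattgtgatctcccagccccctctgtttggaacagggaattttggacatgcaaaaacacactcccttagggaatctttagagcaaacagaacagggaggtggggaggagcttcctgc
C1ra, chr6:124512633-124512662, plus strand: ctgtTTATGCAAatgcttcaTTCCCTGAAa
Cd55, chr1:130462745-130462994, minus strand: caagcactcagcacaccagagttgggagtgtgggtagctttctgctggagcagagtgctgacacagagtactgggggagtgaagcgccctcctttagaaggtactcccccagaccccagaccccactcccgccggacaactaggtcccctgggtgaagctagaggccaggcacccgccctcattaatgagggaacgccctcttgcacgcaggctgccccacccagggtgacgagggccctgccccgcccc
Cd59a, chr2:104095551-104095800, plus strand: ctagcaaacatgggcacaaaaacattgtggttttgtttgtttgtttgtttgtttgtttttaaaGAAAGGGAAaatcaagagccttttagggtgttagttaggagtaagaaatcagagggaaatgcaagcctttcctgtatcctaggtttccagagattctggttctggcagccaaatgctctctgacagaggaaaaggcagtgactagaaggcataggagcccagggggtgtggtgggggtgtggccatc
In the full windows of 300 bases, searched on both strands, a C/EBP match was found in C3 (position −45 from the start site), C1s1 (−242) and C1ra (17), and none was found in Cd55 or Cd59a. The same letters occur in 10.8% of all 27025 promoter windows. The STAT match of C1ra is of a kind held by 8.47% of windows, and the interferon-response match of Cd59a (−187) of a kind held by 8.57%. No window of the 5 held GGNNTTTCC, a short form of the NF-kB site that 5.72% of windows hold. TATAAA stood in the C3 window only (15 after the start site, 14.2% of all windows), and GGGCGG, the Sp1 site, in that of Cd55 only (−77 and −7, both on the other strand, 35.9% of all windows). CpG dinucleotides numbered 3 in C3, 1 in C1s1, 5 in C1ra, 12 in Cd55 and 1 in Cd59a, against a median of 7 over all windows and quartiles of 3 and 21. A match of letters is a description of the sequence and was not tested as a binding site or for a link with the levels. No methylation was measured at these windows.

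A gene was taken as upregulated or downregulated when its adjusted p did not exceed 0.05 and its log2 fold change reached 1 or −1. Among all 16829 genes tested, 6.03% were upregulated and 0.392% downregulated. Of the 8 complement genes, 1 was upregulated (C3) and 0 were downregulated by edgeR, with 3 higher and 1 lower at an unadjusted p under 0.05 (15.8% and 7.79% of all genes tested). The levels of the 2 groups did not overlap for 3 of the 6 tested genes that were higher in Dnmt1Δ/Δep cells (18.2% of all genes tested) and for 1 that was lower (11.7% of all genes tested). Control replicate 3, the smallest library, was the highest control library for each of the 6 tested genes. The median log2 fold change of the 6 was 0.79, and that of all genes was 0.00. The value of 0.79 fell between Cd55 (−0.15) and C1ra (1.72), with none of the 6 genes in between. Lower RNA of a gene in bulk cultures can reflect fewer cells of a type or less RNA per cell, and these cannot be told apart here.

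**Figure D1:**
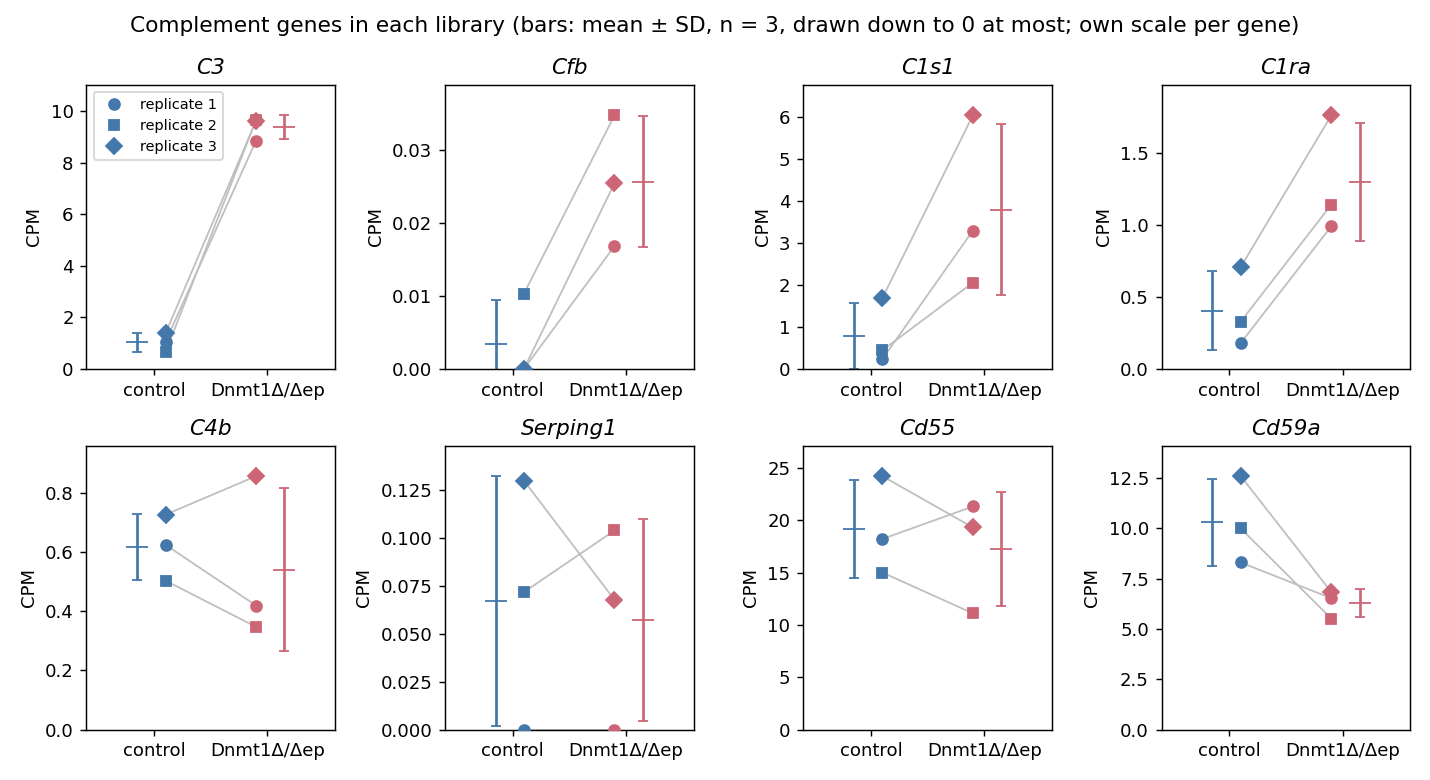
Level of the 8 complement genes in CPM (linear axis, own scale per gene) in 3 control and 3 Dnmt1Δ/Δep libraries, with grey lines joining libraries of the same replicate number and bars giving mean ± SD, which stop at 0. C3, C1s1 and C1ra were higher in each Dnmt1Δ/Δep library than in any control library, and Cd59a was lower.

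C3 is the central component on which all complement pathways converge. The gene lies on chromosome 17 of GRCm38 (the build of all positions here) at 57203970 to 57228136 on the minus strand (ENSMUSG00000024164), and none of its exon sequence overlaps another gene. C3 had 1.06, 0.646 and 1.38 CPM in control replicates 1, 2 and 3, and 8.86, 9.66 and 9.63 CPM in the Dnmt1Δ/Δep replicates. The lowest Dnmt1Δ/Δep library was thus well above the highest control library, and the spread within each group was small beside the gap. The means were 1.03 ± 0.366 and 9.38 ± 0.453 CPM (SD, n = 3), from 63 to 100 reads in control and 528 to 1136 reads in Dnmt1Δ/Δep libraries. The log2 fold change was 3.20 ± 0.29 (SE, 95% interval 2.53 to 3.88, edgeR with Benjamini-Hochberg adjustment, adjusted p = 0.001). Within replicate numbers 1, 2 and 3 the log2 ratio was 3.07, 3.90 and 2.81. C3 remained upregulated under all 11 alternatives, with log2 fold changes between 2.95 and 3.46.

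C1s1 and C1ra code for the mouse C1s and C1r proteases and lie 6901 bases apart on chromosome 6, C1ra at 124512405 to 124523443 on the plus strand (ENSMUSG00000055172) and C1s1 at 124530345 to 124542359 on the minus strand (ENSMUSG00000038521). C1s1 had 0.233, 0.441 and 1.69 CPM in control against 3.30, 2.06 and 6.05 CPM in Dnmt1Δ/Δep replicates 1, 2 and 3. C1ra had 0.180, 0.328 and 0.707 CPM in control against 0.990, 1.14 and 1.76 CPM in Dnmt1Δ/Δep replicates. Both genes were highest in replicate 3 of each group, and for both every Dnmt1Δ/Δep library lay above every control library. The spread was wide: C1s1 averaged 0.789 ± 0.790 CPM in control against 3.80 ± 2.04 CPM in Dnmt1Δ/Δep cells, and C1ra 0.405 ± 0.272 and 1.3 ± 0.409 CPM (SD, n = 3).

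Neither protease gene passed the test. The log2 fold change was 2.32 ± 0.74 for C1s1 (SE, 95% interval 0.58 to 4.06, adjusted p = 0.10) and 1.72 ± 0.51 for C1ra (0.52 to 2.93, adjusted p = 0.084, both by edgeR with Benjamini-Hochberg adjustment). Within replicate numbers the log2 ratios were 3.83, 2.22 and 1.84 for C1s1 and 2.46, 1.80 and 1.32 for C1ra, positive in each of 3 pairs. With the replicate number as a block in edgeR, both passed: 2.55 for C1s1 (adjusted p = 0.020) and 1.82 for C1ra (adjusted p = 0.021), so that 3 of the 8 genes were upregulated. Both also passed without control replicate 3, at 3.49 (adjusted p = 0.019) and 2.35 (adjusted p = 0.033), with DESeq2 and without a filter on low counts. With any other library left out they did not pass, at log2 fold changes down to 1.80 for C1s1 (adjusted p up to 0.29) and 1.36 for C1ra (adjusted p up to 0.25). Of stretches of 50 bases, 48% of C1ra are shared with its copy C1rb and 21.8% of C1s1 with C1s2, and reads from these are not unique. C1rb had 0 counts in every library and C1s2 0 to 15 counts. An antisense gene, Gm16567, overlaps 18.4% of the C1s1 exons.

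C4b codes for complement C4, the substrate of C1s and a part of the C3 convertase of the classical pathway. It lies on chromosome 17 at 34728380 to 34743882 (ENSMUSG00000073418). C4b had 0.624, 0.503 and 0.726 CPM in control against 0.419, 0.347 and 0.856 CPM in Dnmt1Δ/Δep replicates 1, 2 and 3. The groups overlapped, with 2 of the 3 Dnmt1Δ/Δep libraries below all controls and the third above them. The log2 fold change was −0.17 ± 0.41 (SE, adjusted p = 0.87 by edgeR with Benjamini-Hochberg adjustment), and its 95% interval ran from −1.13 to 0.79, or folds from 0.457 to 1.73. Its sign turned to 0.02 without Dnmt1Δ/Δep replicate 2. C4b shares 34.6% of its stretches of 50 bases with C4a, a copy that counted 1.42 CPM in control against 0.943 CPM in Dnmt1Δ/Δep cells (log2 fold change −0.59, adjusted p = 0.16), so the split of reads between the copies is uncertain.

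Cfb, which codes for factor B of the alternative pathway, was at 0, 1 and 0 counts in control and 1, 3 and 3 counts in Dnmt1Δ/Δep replicates. All 6 values lie at or under the limit of 3 counts, and no fold change is given. The gene (ENSMUSG00000090231, chromosome 17, 34856374 to 34862518) shares 79.5% of its exon sequence with the readthrough gene Gm20547, which was listed at 0 in every library. Reads in such shared sequence fit more than 1 gene and are left out by the union model of htseq-count, so low counts of Cfb do not show that its RNA was absent. The neighbouring C2 shares 46.9% of its exon sequence with Gm20547 and, on the other strand, Zbtb12. Serping1, which codes for C1 inhibitor, had 0, 7 and 7 counts in control and 0, 9 and 8 counts in Dnmt1Δ/Δep replicates (0.0674 ± 0.0653 and 0.0573 ± 0.0528 CPM, SD, n = 3). No part of its exons (ENSMUSG00000023224, chromosome 2, 84765387 to 84775444) is shared with another gene, and it was too low to be tested.

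Cd55 and Cd59a, the membrane regulators that dissociate C3 convertases and block the membrane attack complex, had the highest levels per kilobase of exon among the 8 in both groups, Cfb being undercounted. Cd55 (ENSMUSG00000026399, chromosome 1, 130439027 to 130462744) had 18.2, 15 and 24.2 CPM in control against 21.3, 11.1 and 19.3 CPM in Dnmt1Δ/Δep replicates 1, 2 and 3. The groups overlapped, and replicate 2 was the lowest in both. The log2 fold change of Cd55 was −0.15 ± 0.27 (SE, 95% interval −0.79 to 0.49, adjusted p = 0.83 by edgeR with Benjamini-Hochberg adjustment), and its sign turned to 0.04 without Dnmt1Δ/Δep replicate 2 and to 0.05 without control replicate 3.

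Cd59a (ENSMUSG00000032679, chromosome 2, 104095801 to 104115354) had 8.31, 10 and 12.6 CPM in control against 6.53, 5.52 and 6.84 CPM in Dnmt1Δ/Δep replicates. Every Dnmt1Δ/Δep library was below every control library, and the means were 10.3 ± 2.18 and 6.29 ± 0.692 CPM (SD, n = 3). The log2 fold change was −0.71 ± 0.19 (SE, 95% interval −1.17 to −0.26, adjusted p = 0.064 by edgeR with Benjamini-Hochberg adjustment), short of both thresholds. Under the replicate block it was −0.70 with an adjusted p of 0.046, and without control replicate 1 −0.85 with an adjusted p of 0.023. With DESeq2 it was −0.74 with an adjusted p of 0.0041, and without a filter on low counts −0.75 with 0.037. In the other alternatives the adjusted p was over 0.05, up to 0.17. The fold change threshold was passed under none of the 11 alternatives. Cd59b, the second mouse CD59 gene, shares 3.87% of the stretches of 50 bases and had a log2 fold change of 0.09.

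**Figure D2:**
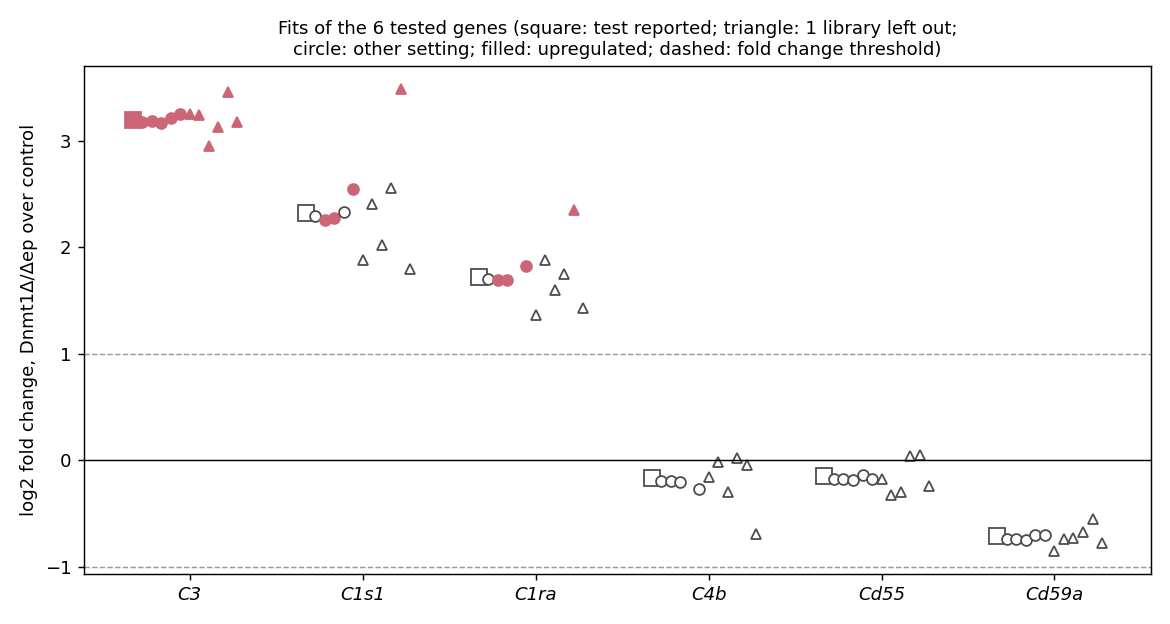
Log2 fold change of the 6 tested genes, Dnmt1Δ/Δep over control, in the test reported and under each alternative, with dashed lines at −1 and 1. C3 was upregulated in each fit, C1s1 and C1ra in 4 alternatives each, and C4b, Cd55 and Cd59a in none.

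Per kilobase of exon (RPKM), the control levels ran from 5.70 ± 1.20 for Cd59a and 3.94 ± 0.967 for Cd55 to 0.252 ± 0.253 for C1s1, 0.200 ± 0.0713 for C3, 0.136 ± 0.0913 for C1ra and 0.108 ± 0.0196 for C4b (SD, n = 3). Serping1 and Cfb followed at 0.0290 ± 0.0281 and 0.00121 ± 0.00210 RPKM, the latter with most of its exon sequence uncounted. Neighbours in this order did not differ beyond their SDs, except for the steps from Cd55 to C1s1 and from C4b to Serping1. In Dnmt1Δ/Δep cells the order was Cd55 (3.55 ± 1.11 RPKM), Cd59a (3.48 ± 0.382), C3 (1.82 ± 0.0881), C1s1 (1.22 ± 0.653), C1ra (0.436 ± 0.137) and C4b (0.0950 ± 0.0484). Only the steps from Cd59a to C3 and from C1ra to C4b exceeded the SDs in these 6, and both regulators stayed above C3. On the scale of all genes tested, C3 moved from percentile 18.4 in control to percentile 39.5 in Dnmt1Δ/Δep libraries.

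The rest of the pathway was read from 51 further genes, of which 20 could be tested. By edgeR 8 of these were upregulated and 0 downregulated, beside the 6.03% and 0.392% of all genes. Among the 8, Hc, Mbl2 and Cpn1 entered the test only through the Dnmt1Δ/Δep libraries, and the count without them is given below. In the classical and lectin pathways 3 of 8 tested genes rose. Fcna, which codes for the lectin ficolin A, had 74, 44 and 28 reads in control and 334, 375 and 627 reads in Dnmt1Δ/Δep replicates, or 0.585 ± 0.174 and 5.08 ± 0.664 CPM (SD, n = 3). The groups lay far apart, and the log2 fold change of Fcna was 3.11 ± 0.28 (SE, adjusted p = 0.001 by edgeR with Benjamini-Hochberg adjustment), near that of C3. Masp1, a protease that works with such lectins, rose from 0.834 ± 0.354 to 2.65 ± 0.934 CPM (log2 fold change 1.66, adjusted p = 0.040), but had an adjusted p of 0.058 with the replicate block and passed in 1 of 6 fits with a library left out. Mbl2, a mannose-binding lectin, rose from 0, 0 and 1 counts to 17, 17 and 32 counts, a ratio of 61.4 for the pooled counts over the pooled library sizes, with a counting interval of 10.6 to 2460 (40.5 for the ratio of the mean CPM). Its adjusted p was 0.0089 by edgeR, and 0.053 without control replicate 2, where it no longer passed.

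C1rl, a C1r-like protease beside C1ra, had a log2 fold change of 1.22 (adjusted p = 0.20 by edgeR, and 1.20 with 0.037 with the replicate block). Colec12, a scavenger receptor of the collectin family, had 1.5 (adjusted p = 0.096 by edgeR with Benjamini-Hochberg adjustment). The genes of C1q, the recognition part of the C1 complex, were at 4 counts or fewer in every library. Masp2, with a log2 fold change of −0.92 (adjusted p = 0.34), shares 54.9% of its exon sequence with the antisense gene Tardbp, and its reads cannot be assigned with certainty.

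In the terminal pathway, Hc, the gene of complement C5, was the only 1 of 7 genes with enough reads. It was listed at 0 throughout the control group and reached 20, 29 and 57 counts with Dnmt1 deleted, at least 9.75-fold higher when each control library is set at 3 counts (adjusted p = 0.0057 by edgeR with Benjamini-Hochberg adjustment). Hc, Mbl2 and the regulator gene Cpn1 entered the test only through the Dnmt1Δ/Δep libraries, so their place in the counts above depended on where they were high. Of the 16 other complement genes that the control libraries alone would have carried through the filter, 5 were upregulated (3.8% of all such genes). Of the alternative pathway, Cfp (properdin) had a log2 fold change of 0.10, and Cfd (factor D) had at most 1 count.

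Among 16 further regulators, 6 were tested and Cpn1 rose. Cpn1 codes for the catalytic subunit of carboxypeptidase N, which trims the anaphylatoxins, and went from 0.102 ± 0.0489 to 0.684 ± 0.527 CPM (log2 fold change 2.76, SD with n = 3, adjusted p = 0.046 by edgeR with Benjamini-Hochberg adjustment), with 77 reads in Dnmt1Δ/Δep replicate 1 and 32 and 46 in the others. It did not pass when any 1 of the 6 libraries was left out, with adjusted p between 0.063 and 0.16. The more abundant regulators did not pass the test: Cr1l (Crry, the rodent inhibitor of C3 convertases) at 47.4 and 45.1 CPM (95% interval of the fold 0.768 to 1.17), Susd4 at 24.6 and 24.6 CPM (0.807 to 1.24) and Clu (clusterin) at 9.21 and 12.7 CPM (0.742 to 2.57). Cfi, the gene of factor I, was at 0 counts in every library.

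Of the receptors, Itgam and Itgb2, which together make complement receptor 3, and Cd93, once taken for a receptor of C1q, rose. Itgam went from 0.309 ± 0.266 to 1.5 ± 0.296 CPM (log2 fold change 2.35, adjusted p = 0.047), Itgb2 from 0.266 ± 0.0279 to 0.799 ± 0.207 CPM (1.58, adjusted p = 0.028) and Cd93 from 1.16 ± 0.511 to 4.90 ± 0.830 CPM (2.06, adjusted p = 0.010, all SD, n = 3, edgeR with Benjamini-Hochberg adjustment). With 1 library left out, Itgam passed in 1 of 6 fits, Itgb2 in 2 and Cd93 in 5. The anaphylatoxin receptors had too few reads for the filter on low counts. Without it, edgeR gave C5ar2 a log2 fold change of 3.54 (adjusted p = 0.012) and C3ar1 one of 2.92 (adjusted p = 0.056). C5ar2 had 1, 5 and 2 counts in control and 41, 40 and 11 counts in Dnmt1Δ/Δep libraries, C3ar1 2, 1 and 2 against 20, 12 and 8, and C5ar1 2, 0 and 0 against 15, 5 and 2.

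**Figure D3:**
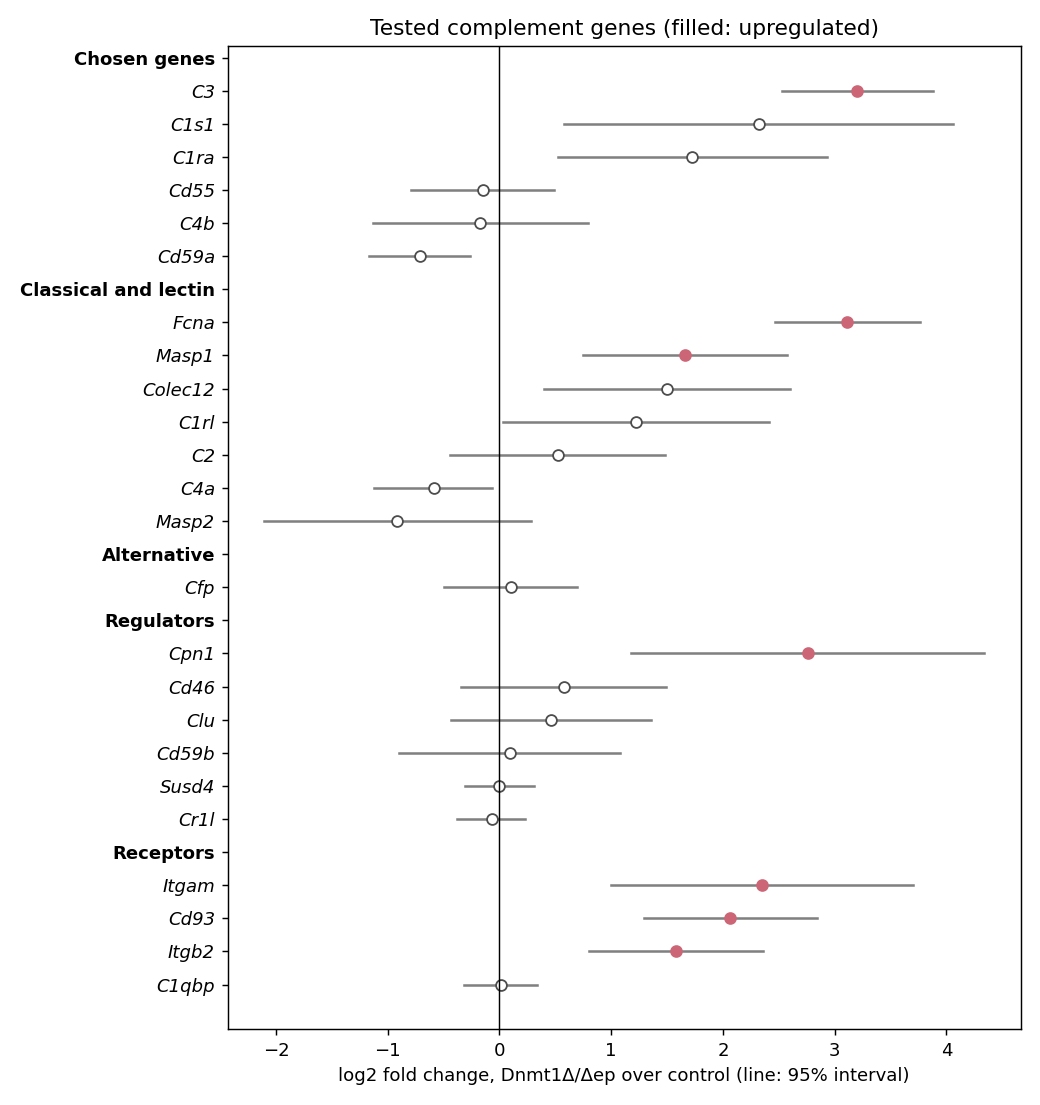
Log2 fold change with 95% interval for the 6 tested genes chosen (top) and the other tested complement genes by role, Dnmt1Δ/Δep over control, with filled points for upregulated genes. Hc and Mbl2 are not drawn, since their control libraries held at most 1 count. C3 (3.20) and Fcna (3.11) had the highest values among those drawn, and the intervals of Susd4, Cr1l and C1qbp were the narrowest around 0.

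Cytokines and factors known to induce complement genes were read from a list of 18 genes, 14 of them tested. Il1a rose from 5.52 to 84.1 CPM (log2 fold change 3.93, adjusted p = 0.0057), Tnf from 2.10 to 13.7 CPM (2.73, adjusted p = 0.0074) and Irf1, an interferon-regulated transcription factor, from 4.56 to 17.7 CPM (1.96, adjusted p = 0.001, all edgeR with Benjamini-Hochberg adjustment). Lif (0.99, adjusted p = 0.0023) and Nfkbiz (0.64, adjusted p = 0.0063) passed the test below the fold change threshold. Cebpb and Cebpd, which code for C/EBP factors, had log2 fold changes of 0.26 (adjusted p = 0.50) and 0.84 (adjusted p = 0.18), and Stat2, Stat3, Nfkb1 and Rela lay between −0.12 and 0.15. Ifng was at 0 counts in every library and Ifnb1 at 0 to 2 counts.

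Among 9310 tested genes with a mean of at least 10 CPM, the 3 whose log2 CPM went most closely with C3 over the 6 libraries were Ankk1 (Pearson r = 0.999), Irf1 (0.996) and Slc25a30 (0.996), and 403 genes had an r above 0.9. Ifih1, which codes for the RNA sensor MDA5, was among the closest 3 of both C1s1 (0.983) and C1ra (0.996). Osmr, the oncostatin M receptor gene, stood beside it for C1ra (0.996), and Dock11 and C1galt1 for C1s1 (0.987 each). These correlations share the same 6 libraries and the same difference between the groups, and they are a description. The genes closest to C4b, Cd55 and Cd59a had log2 fold changes between −0.40 and −0.02.

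Of 42 tested genes that lie nearest to the 8, 3 were upregulated and 0 downregulated by edgeR, 3 to each side being taken for each gene, a share near the 6.03% of all genes tested. They were, with distances from start to start, Clstn3, which stands 81.6 kb from C1ra and went from 0.0262 to 0.784 CPM, Smtnl1, 45.8 kb from Serping1 and at 0.0331 and 0.192 CPM, and Thsd7b, 1170 kb from Cd55 and at 0.0749 and 0.385 CPM. All 3 entered the test only through the Dnmt1Δ/Δep libraries, and they are not among the 34 neighbours that the control libraries alone would have carried through the filter on low counts. Fbxo3, 68.1 kb from Cd59a, had a log2 fold change of −0.39 with an adjusted p of 0.035.

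Markers of other cell types moved with the groups in part. The 10 fibroblast markers summed to 77.5, 109 and 78.7 CPM in control against 123, 74.5 and 150 CPM in Dnmt1Δ/Δep replicates 1, 2 and 3. By edgeR 0 of the 10 were upregulated, with 2 higher at an unadjusted p under 0.05 (15.8% of all genes tested). Fbln1 made up much of this sum (56.3 and 47.0 CPM), and 9 of the 10 had positive log2 fold changes, with a median of 0.75. The order of the 3 Dnmt1Δ/Δep libraries was the same for this sum and for C1s1 but not for C1ra, while control replicate 3, the highest control library for C1s1 and C1ra, was not high in it. The macrophage and dendritic cell list summed to 0.317 to 1.23 CPM in control against 2.64 to 4.58 CPM in Dnmt1Δ/Δep libraries, with 4 of 10 genes tested and Csf1r and Itgam upregulated, while Adgre1, Cd207, C1qa and C1qb were at 0 to 2 counts and Lyz2 at 0 to 6. Cd74 had 0, 0 and 7 counts against 29, 14 and 43 counts (adjusted p = 0.14 by edgeR), and Ptprc had 12 counts in Dnmt1Δ/Δep replicate 1 and at most 2 elsewhere.

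Endothelial markers summed to 6.83 to 17.9 CPM and 16.6 to 23.8 CPM. Of 5 tested genes, 2 were upregulated (6.03% of all genes), Pecam1 (1.92 and 7.16 CPM) and Cdh5 (0.255 and 4.62 CPM). Cdh5 had 0.0931 CPM in control replicate 3, under the 0.109 CPM of the filter, so the control libraries alone would not have carried it through. Kdr (6.81 and 6.11 CPM), Tek (0.81 and 1.2 CPM) and Vwf (1.22 and 1.94 CPM) were not upregulated. Emcn (0.109 and 0.115 CPM) and Cldn5 (0 or 1 count) had too few reads to be tested. Melanocyte markers summed to 224 to 573 CPM and 688 to 912 CPM, with 0 of 7 upregulated. All 7 had positive log2 fold changes, with a median of 0.90. Of these, 4 were higher at an unadjusted p under 0.05 by edgeR (15.8% of all genes tested), and 5 did not overlap between the groups (18.2%). The neutrophil list summed to 49.3 to 126 CPM and 192 to 253 CPM, almost all of it S100a8 and S100a9, which keratinocytes also make and which were both upregulated (log2 fold change 1.5 and 1.48, adjusted p = 0.025 and 0.045 by edgeR), with Ly6g at 0 or 1 count and Csf3r at 0. Mast cell markers summed to 3.55 to 8.51 CPM and 11 to 15.1 CPM and T cell markers to 0.740 to 1.04 CPM and 0.386 to 0.682 CPM, with 0 upregulated among 2 tested genes and 1 tested gene by edgeR. Nearly all of the mast cell sum was Kit (6.05 and 13.0 CPM), which melanocytes also express, and Cpa3, Mcpt4 and Fcer1a were at 0 in every library. Most of the T cell sum was Lck (0.882 and 0.444 CPM), with Cd3d, Cd3e and Cd3g at 2 counts or fewer. Of the keratinocyte markers, Krt5 (log2 fold change −0.50, adjusted p = 0.038) and Krt14 (−0.61, adjusted p = 0.028, edgeR with Benjamini-Hochberg adjustment) fell by less than the fold change threshold and carried most of the lower sum, while 5 of the 10 had positive log2 fold changes and the median was −0.13. Krt1 and Krt10, keratins of differentiating cells, went from 313 to 63.6 CPM (−2.30, adjusted p = 0.085) and from 23.8 to 7.98 CPM (−1.58, adjusted p = 0.069), without passing by edgeR, and Krt1 was far lower in control replicate 1 (53.2 CPM) than in the other controls. The part of other cells in the levels of C3, C1s1 and C1ra was not tested.

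**Figure D4:**
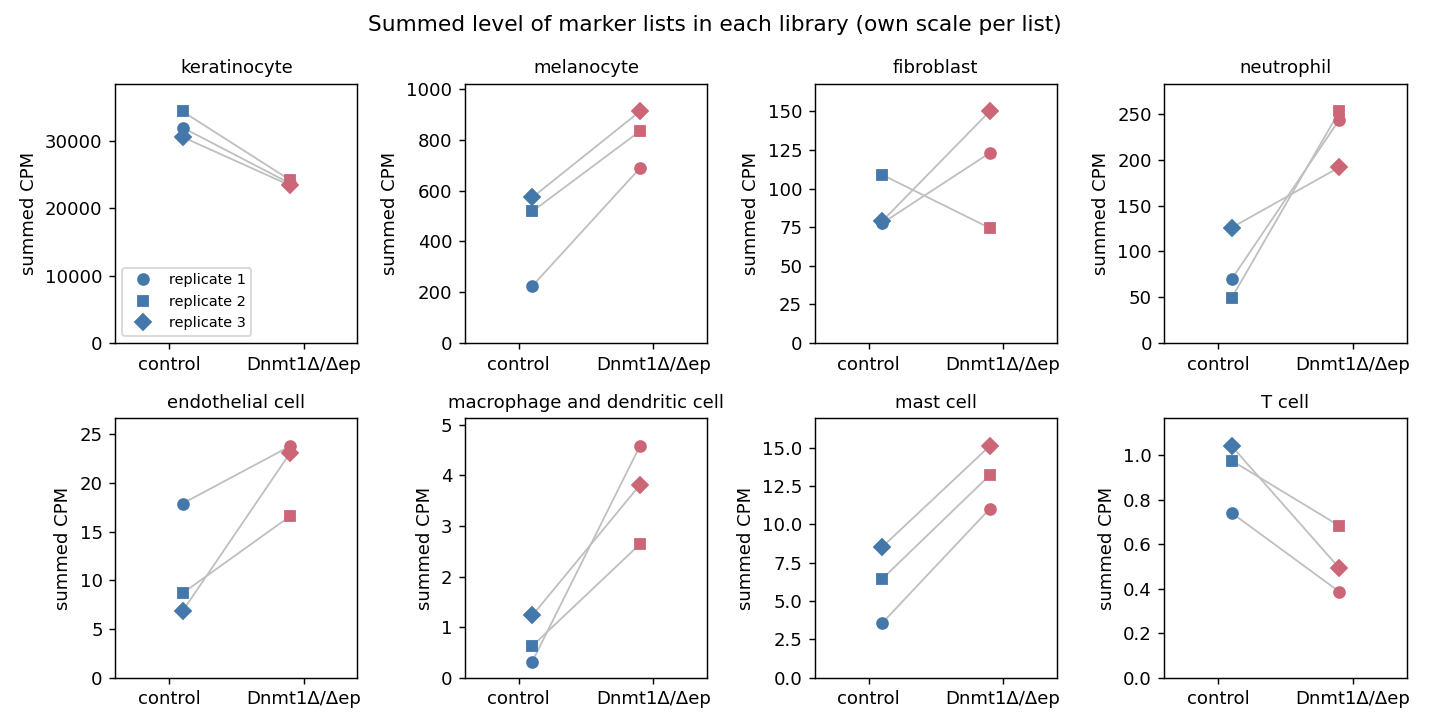
Summed CPM of 8 lists of cell type markers in 3 control and 3 Dnmt1Δ/Δep libraries, with grey lines joining libraries of the same replicate number and an own linear scale from 0 for each list. Fibroblast sums overlapped between the groups, whereas those of melanocyte, macrophage and dendritic cell, neutrophil and mast cell lists were higher in each Dnmt1Δ/Δep library, and keratinocyte and T cell sums lower.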

How the data were processed

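RNA was sequenced from 3 control and 3 Dnmt1Δ/Δep keratinocyte cultures. Adapters and ribosomal reads were trimmed away by the authors, alignment was with STAR, and htseq-count (union model) assigned uniquely mapping reads to genes, so that the deposited values are raw counts with no normalization. The submitters' processing notes name GRCm38, whereas the methods name a human build for the gene alignment. Entries that name no gene (8.73% to 12.9% of counted reads) were left out. Columns with no known sample numbered 0. The other deposited tables, with repeat counts and the authors' own fold changes and p-values, were not used. Groups came from the sample labels.

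Both edgeR and DESeq2 appear in the methods. The main test was the quasi-likelihood test of edgeR 4.0.16 in R 4.3.3 after TMM normalization (factors 0.980 to 1.02) and filterByExpr with minimum counts of 10 and 15, and p-values were adjusted by Benjamini-Hochberg over all 16829 genes. A gene was taken as carried through the filter by the control libraries alone when all 3 reached 0.109 CPM before TMM scaling, a step added after the values were seen. CPM are counts over library size times TMM factor. An exact permutation test of 3 against 3 cannot go below 0.1 (two-sided) and was not used. Tested on simulated data of 16829 genes, the test found 190 of 200 changed genes and made 7 false calls. All changed genes were drawn above a minimum mean level, with set fold changes beyond the threshold and no effect shared by replicates. This rate thus does not cover genes at low levels, such as C1ra and C4b. Alternatives were DESeq2 1.42.0, its size factors in edgeR, no filter, a mean RPKM of at least 1, the replicate number as a block, and each library left out. Same-numbered libraries share a lane per the file headers, and their deviations from the group means correlated (0.43, 0.28 and 0.30). Libraries of unlike number were not compared, and the labels name no litter. The numbers thus link libraries by lane, and whether they pair the animals is not known. The methods name no block, so the block was kept as an alternative.

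Positions, exon lengths and overlaps came from GENCODE M21 on GRCm38, with symbols for 42462 of 43629 genes (97.3%), and promoter windows from RefSeq. Read length is not given in the sources used here, and stretches of 50 bases stand in for reads. Named genes are the 8, the lists of other complement genes, inducers and markers, the 3 genes most alike and upregulated neighbours. Some listed genes are not reported here one by one. The genes and lists were chosen with earlier results of these data known. Figures were drawn with Python 3.11.15 and matplotlib 3.10.9.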

Additional observations from a re-analysis of the deposited data

How the results depend on the processing

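C3 and Fcna were upregulated under all 11 alternatives, and Hc under all 10 in which it was tested. Hc passed the filter on low counts only through the Dnmt1Δ/Δep libraries. Of the 8 genes, 1 was upregulated in the test reported and 3 with DESeq2, without a filter and with the replicate block, and 1 to 3 with a library left out (3 without control replicate 3). C1ra was not tested where a mean RPKM of at least 1 was required. Of all genes, 1014 were upregulated and 66 downregulated, which became 395 and 35 with a mean RPKM of at least 1, 116 downregulated with DESeq2 and 107 without a filter, and 559 to 1183 upregulated and 15 to 180 downregulated with a library left out. The replicate block gave 1173 and 95. The other complement genes upregulated went from 8 to 1 with the RPKM minimum and 3 to 6 with a library left out, and stayed at 8 with the replicate block, with Masp1 lost and C1rl gained. Besides these, C1s1 and C1ra, the block changed no call among the complement genes. Upregulated neighbours went from 3 to 5 with DESeq2, 0 with the RPKM minimum, and 1 to 3 with a library left out.

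Log2 fold changes near 0 changed sign. C1qbp (0.01) was at −0.02 with DESeq2 and with its size factors, −0.03 without a filter, −0.02 without control replicate 2, −0.06 without Dnmt1Δ/Δep replicate 2 and −0.11 without control replicate 3. Susd4 was at 0.01 with the RPKM minimum and the block, 0.06 without Dnmt1Δ/Δep replicate 1 and 0.11 without control replicate 2. Cr1l was at 0.00 and Cd59b at −0.05 without control replicate 1, Cd59b at −0.11 without Dnmt1Δ/Δep replicate 3, Cfp at −0.06 without Dnmt1Δ/Δep replicate 1, C4b at 0.02 and Cd55 at 0.04 without Dnmt1Δ/Δep replicate 2, and Cd55 at 0.05 without control replicate 3. At the other end of the fits with a library left out, C4b was at −0.69, Cd55 at −0.33, Cfp at 0.21, Cr1l at −0.18, Cd59b at 0.28, Susd4 at −0.09 and C1qbp at 0.17. The causes were not tested. C5ar2, not tested in the fit reported for its low counts, was upregulated without a filter (3.54) and without Dnmt1Δ/Δep replicate 3 (4.07). The upregulated other complement genes numbered 9 both without a filter and with DESeq2.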
